A study of Mus musculus with 2 samples.

Results

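Contractile cells of the dermal sheath were sought in single-cell RNA-seq of mouse dorsal skin. A barcode was taken as a member if it held a unique molecular identifier (UMI, 1 counted transcript molecule) of at least 2 of the contractile genes Acta2, Tagln, Myh11 and Itga8. It also needed a UMI of at least 2 of Hpse2, Rorb, Megf11, Slit2, Col8a1, Apod, Itga8 and Myh11, taken here as sheath markers. Barcodes with any UMI of Rgs5, Notch3, Des, Pecam1 or Dct were left out, since these genes mark pericytes, muscle, endothelium and melanocytes. The rule found 238 members among 62289 barcodes with 200 to 8000 genes and at most 10% mitochondrial UMIs. Of these, 134 were among 42244 barcodes of Con and 104 among 20045 barcodes of TP.

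Con was the vehicle control, and TP was the androgenetic alopecia (AGA) model, given subcutaneous testosterone propionate at 0.5 mg per day. Both groups were male C3H/HeN mice, 7 weeks old at the start and 9 weeks old at harvest. Dorsal skin of 15 mice was pooled per group before the cells were released with collagenase D, and each pool gave 1 library of the 10x GEM-X 3′ chemistry. With 1 library per group there is no test of Con against TP, and intervals given here are 95% intervals that cover counting error only. A further group, with an antibody to CXCL12, was not analysed here.

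The dermal sheath is a layer of mesenchyme that wraps the hair follicle and is continuous at its base with the dermal papilla. Its innermost cells carry smooth muscle actin and myosin, and their contraction at the end of growth helps to pull the regressing follicle and its papilla upward. Sheath progenitors also supply new sheath and papilla cells in later cycles. Dermal papilla cells (DPCs) direct hair growth with secreted WNT, FGF and BMP signals, while dermal fibroblasts (DFs) make the collagen-rich extracellular matrix (ECM) around the follicle.

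Con held 126023483 UMIs in kept barcodes and TP held 156376139. The median kept barcode had 2162 UMIs in Con and 5166 in TP. Members followed this gap, with medians of 3271 UMIs in Con and 6347.5 in TP. A rule that asks for a UMI of given genes is met more readily in a deeper barcode, so equal-depth values are given beside several of the results below. The same barcode sequence occurred in both libraries 303 times, and 2 members of Con and 1 of TP carried such a barcode.

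Acta2 is a textbook target of serum response factor, which binds a promoter motif called the CArG box. The promoters of 2 genes of the contractile list below are shown because they carry this box in the 250 bases before a transcript start. Capitals mark the box, and the sequences are from RefSeq, build GRCm38.p6, read 5′ to 3′. The Acta2 window is on the minus strand at chr19:34255374-34255623, and the Myl9 window is on the plus strand at chr2:156775214-156775463.
Acta2: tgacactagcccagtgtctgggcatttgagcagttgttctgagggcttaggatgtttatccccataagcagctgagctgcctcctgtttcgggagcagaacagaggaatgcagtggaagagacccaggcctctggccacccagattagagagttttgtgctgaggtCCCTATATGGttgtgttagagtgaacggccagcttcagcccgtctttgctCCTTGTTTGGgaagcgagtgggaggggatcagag
Myl9: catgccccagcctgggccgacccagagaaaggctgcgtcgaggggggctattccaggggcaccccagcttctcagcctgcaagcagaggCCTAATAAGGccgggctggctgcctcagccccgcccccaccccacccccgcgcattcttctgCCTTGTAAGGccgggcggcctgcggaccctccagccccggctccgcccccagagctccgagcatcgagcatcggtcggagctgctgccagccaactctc
Both boxes of Acta2 held 1 changed letter, at 84 and 34 bases before the start. Myl9 had an unchanged box at 161 bases and one with 1 changed letter at 99 bases before the start. An unchanged CArG box lay in 4 of the 25 contractile genes with a listed promoter (16%) and in 439 of all 27025 genes with one (1.62%). With 1 change allowed, the box lay in 7 of those 25 genes (28%) and in 2643 of all genes with a promoter (9.78%). Such a match describes the letters of a window and does not show binding. Every listed start of a gene was searched, and a gene was counted if any of its windows held the box.

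The members made up 0.317% (0.266 to 0.376) of the barcodes in Con and 0.519% (0.424 to 0.628) in TP, a ratio of 1.64 (1.25 to 2.13). After each barcode was thinned to 1000 UMIs before the rule was applied, the ratio was 1.48 (0.94 to 2.33). The share in TP was thus higher at the deposited depth, while the interval at equal depth includes 1. Asking for 3 genes of each list kept 32 members in each library and gave a ratio of 2.11 (1.25 to 3.55).

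Most members sat close to the threshold. The median member held 4 UMIs of the 4 contractile genes in Con and 5.5 in TP, with quartiles of 3 and 7 in Con and of 3 and 10 in TP. Exactly 2 such UMIs were found in 31 members of Con and 23 of TP, while 10 or more were found in 26 and 29. The most contractile member held 186 of these UMIs in Con and 257 in TP, and Acta2 gave the most in both. The Con cell also held 62 Myh11 UMIs, and the TP cell none. A further Con cell held 183 contractile UMIs among 3166 UMIs in all. Neither of these Con cells had a UMI of Col11a1, Acan or Ednrb, which are described below.

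The values around the threshold are given as a description. Members with exactly 2 genes of each list (26 in Con, 20 in TP) had Acta2 at 773.8 counts per 1000000 UMIs of those cells (CPM) in Con and 1777 in TP. Barcodes with 2 contractile genes but 1 gene of the second list (18 and 23) had 928.7 and 291 CPM. Barcodes with 1 contractile gene and 2 genes of the second list (164 and 113) had 78.3 and 56.79 CPM. A lower Acta2 level follows from how these barcodes were chosen, since they held only 1 contractile gene. Before the barred genes were applied, 237 barcodes of Con and 230 of TP met both lists. Notch3, a Notch receptor of mural cells, barred the most in both libraries, with a UMI in 69 barcodes of Con and 107 of TP. Dct, a melanocyte enzyme, was found in 45 and 11 of them.

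The rule fixed that members hold contractile transcripts, so their levels cannot check the label of contractile sheath cells. Many members also carried the transcripts of DPCs, which the label does not name. To describe this mixture, members were split, after their values had been seen, by whether they had a UMI of at least 3 of the papilla genes Corin, Rspo4, Sostdc1, Fgf10, Ndnf and Hhip. In Con, 92 members (68.7%) had them, and in TP 48 (46.2%) did. The members with fewer papilla genes, called papilla-low members here, were 42 in Con (31.3%, 23.6 to 39.9) and 56 in TP (53.8%, 43.8 to 63.7). Papilla-low members made a share of all kept barcodes that was 2.81 times (1.85 to 4.3) as large in TP as in Con, while the share of papilla-high members had a ratio of 1.1 (0.759 to 1.58). A deeper cell shows more papilla genes, and papilla-low members had medians of 3053 UMIs in Con and 6420 in TP.

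Papilla-low members held more contractile UMIs. This is a description, since the rule used these 4 genes and the split was made after the values had been seen. Their median was 7 contractile UMIs in Con and 7.5 in TP, against 3 and 3.5 in papilla-high members. No papilla gene at all was detected in 10 members of Con and 22 of TP, and all 6 were detected in 30 and 14. In the plot of single cells, the highest contractile levels belong to papilla-low members in both libraries.

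**Figure D1:**
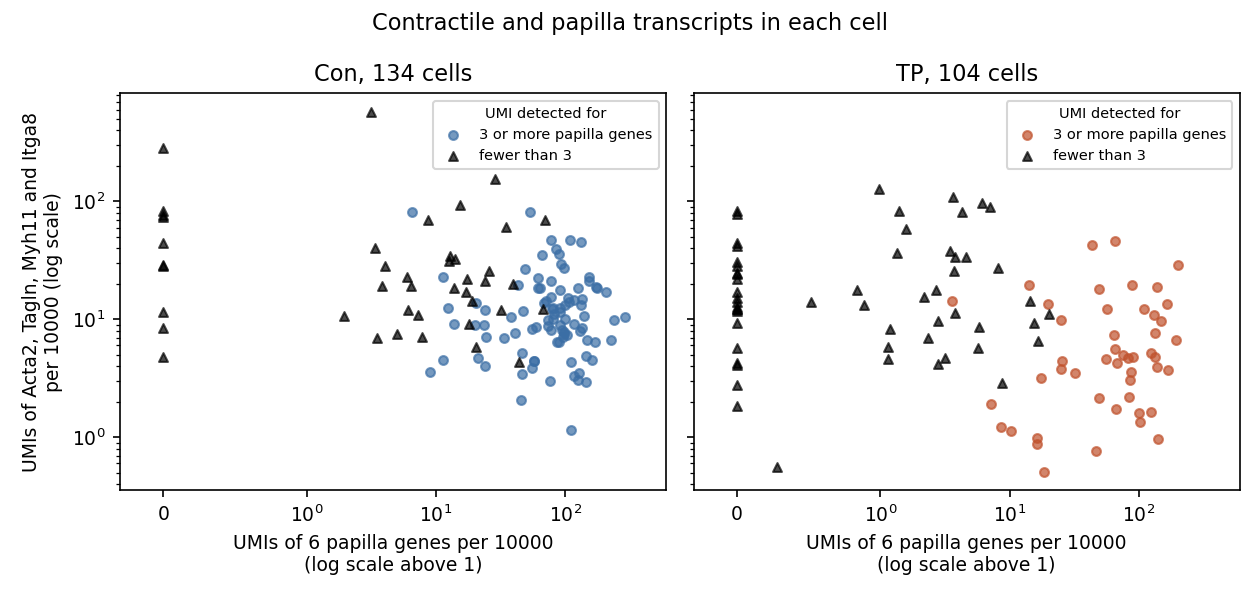
UMIs of the 4 contractile genes (y axis) against UMIs of the 6 papilla genes (x axis), both per 10000 UMIs and on log scales, with 1 point per member and 1 panel per library. Circles are members with a UMI of 3 or more papilla genes (92 in Con, 48 in TP), and triangles are the papilla-low members (42 and 56), which reach the highest contractile levels. The genes of both axes chose the cells or the split, so the plot is a description.

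Levels of the rule's own genes are given as a description, by summed UMIs of each set of cells. Acta2, smooth muscle actin (GRCm38 chromosome 19, 34240336 to 34255585), was at 2457 CPM in papilla-low members of Con and 1711.2 CPM in those of TP. It was at 545.8 and 178.5 CPM in papilla-high members. Papilla cells outside the rule had 15.21 and 40.66 CPM, the latter with 1 cell that held 873 UMIs of the 4 contractile genes, and inner root sheath keratinocytes, which show the level of free RNA, had 4.05 and 5.519 CPM. Pericytes and smooth muscle cells, chosen by at least 2 genes each of 2 marker lists, had 4104.8 and 8071.6 CPM. This order follows from how the sets were chosen. At 1000 UMIs its ratio of TP over Con in papilla-low members was 0.899 (0.6039 to 1.339) in those that still met the rule and 0.8458 (0.6409 to 1.118) with the rule applied after thinning.

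Tagln, an actin-bundling protein of smooth muscle, was at 1608.9 CPM in papilla-low members of Con and 765.5 CPM in those of TP. At 1000 UMIs its ratio was 0.6998 (0.3867 to 1.253) in those that still met the rule and 1.313 (0.9244 to 1.882) with the rule applied after thinning. Itga8, an integrin chain that binds nephronectin, was at 293.1 and 262.7 CPM. Myh11, the smooth muscle myosin heavy chain, was at 623.6 and 60.04 CPM. The Myh11 values rest on few cells, since a UMI was found in 9.7% of members of Con and 8.65% of those of TP, and 1 cell held 58.5% of its UMIs in Con. The ratio in papilla-low members was 0.2559 without the most contractile cell of each library and 0.4011 (0.1092 to 1.252) in those that still met the rule at 1000 UMIs, with 0.6292 (0.4475 to 0.8825) when the rule was applied after thinning. Over all members chosen after thinning it was 1.073 (0.7646 to 1.502). Slit2, a guidance ligand, was at 966.6 and 1083.3 CPM in papilla-low members. Apod, a lipid carrier, was higher in papilla-high members, at 3472.1 and 2263.9 CPM, than in papilla-low members, at 1970.6 and 1018.2 CPM. At 1000 UMIs an Apod UMI was also seen in 40.9% of papilla cells of Con and 62.9% of those of TP. Among the sets compared, Apod was thus not limited to members.

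The rule did not use the following genes directly, but because it chose the cells from the same counts, these too are a description. The 20 genes that stood highest in members over all other barcodes, by the lower of both libraries' log2 ratios, began with Lrrc15 (6.01), Stmn2 (5.95), Igfbp2 (5.13), Adamts18 (4.88) and Col11a1 (4.59). Tspan11, Igfbp4, Myl9, Ifitm1, Egflam, Col12a1, Col6a3, Col6a2, Col6a1, Olfml3, Bgn, Igfbp7, Prrx1, Mef2c and Fgl2 followed, with ratios from 4.29 down to 3.63. The collagen chains Col11a1, Col12a1, Col6a1, Col6a2 and Col6a3 and the IGF-binding proteins Igfbp2, Igfbp4 and Igfbp7 were among them.

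Lrrc15, a membrane protein of collagen-producing mesenchyme, was at 748.3 CPM in papilla-low members of Con and 765.5 CPM in those of TP. Papilla-high members had 103.5 and 81.3 CPM, papilla cells 5.051 and 4.772 CPM and fibroblasts 14.51 and 17.71 CPM. No Lrrc15 UMI was seen in smooth muscle cells of either library. Papilla-low members were thus the highest of these sets for Lrrc15 in both libraries, with nearly the same level in each. A Lrrc15 UMI was seen in 64.3% of papilla-low members of Con and 69.6% of those of TP. At 1000 UMIs per cell, which left out 1 member of Con, these shares were 46.3% and 32.1%, against 0.193% and 0.223% of inner root sheath keratinocytes. All members' summed UMIs gave a ratio of TP over Con of 1.301 (1.078 to 1.576) for this gene, a rise that neither set showed to that size. The larger share of papilla-low members in TP goes with this ratio, and its part in it was not tested.

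Stmn2, a microtubule regulator best known from neurons, was at 230.7 CPM in papilla-low members of Con and 330.2 CPM in those of TP, against 1.235 and 2.585 CPM in papilla cells. Igfbp2, which binds insulin-like growth factors, was at 230.7 and 472.8 CPM in papilla-low members. Col11a1, a fibrillar collagen chain used as a sheath marker, was at 704.7 and 1315.9 CPM there, at 81.83 and 188.4 CPM in papilla cells and at 14.51 and 7.148 CPM in fibroblasts. Col11a1 therefore set papilla-low members apart from both of their mesenchymal neighbours. Mef2c, a partner of muscle gene programs, was at 617.4 and 778.1 CPM in papilla-low members.

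**Figure D2:**
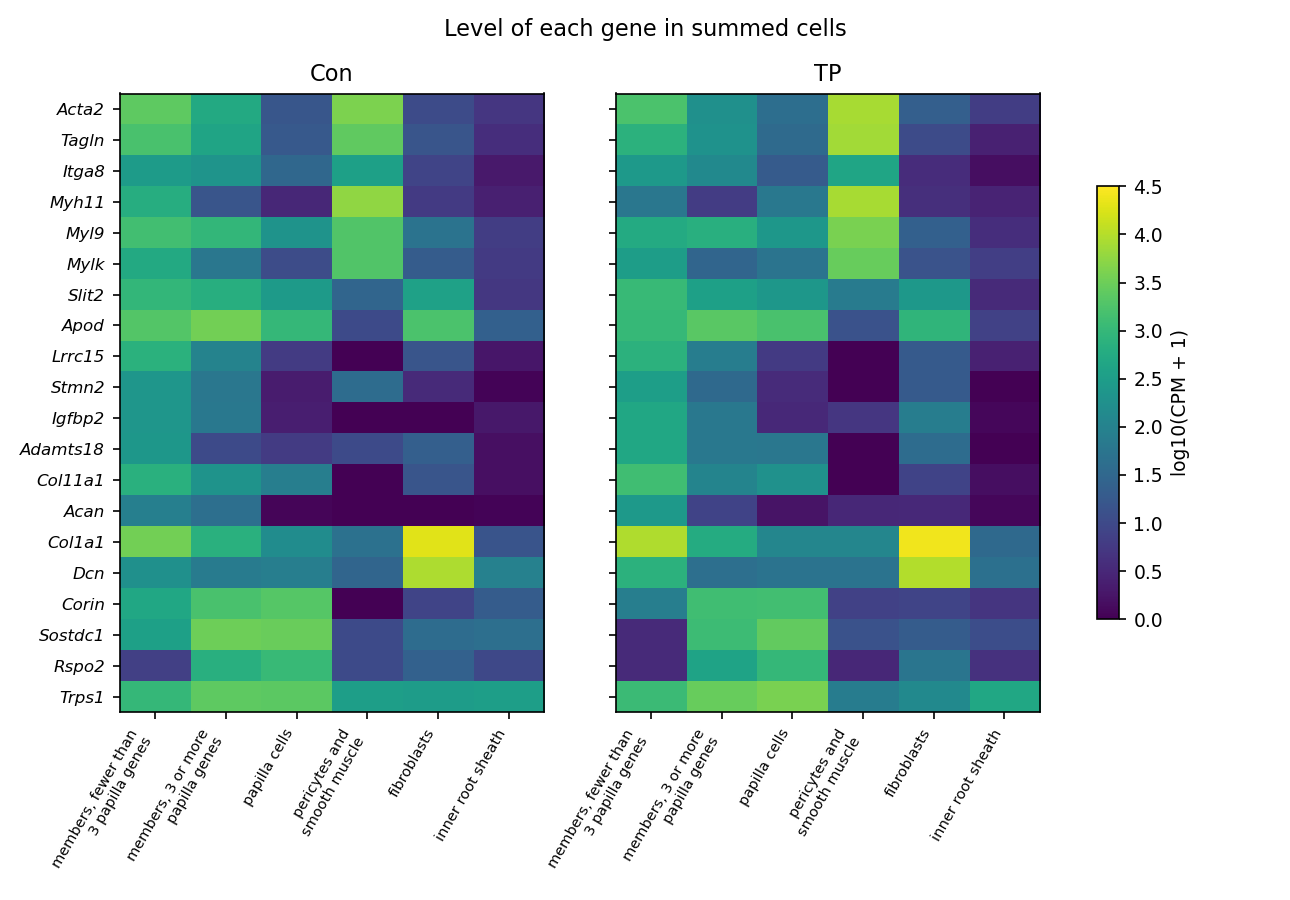
Level of 20 genes, as log10(CPM + 1) in colour, in the summed cells of each set (columns) of Con and TP (panels). Acta2, Tagln and Lrrc15 are bright in papilla-low members and fall off in papilla cells, while Corin and Sostdc1 show the opposite order. The sets were chosen by Acta2, Tagln, Corin and Sostdc1, so the order of these genes is no result.

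The genes that most separated papilla-low from papilla-high members, in the same direction in both libraries, were taken after the split. Towards the papilla-low side stood Itgbl1, Mylk, Adamts18, Lrrc15, Crip1, Ccdc80, Postn, Fgl2, Col1a1, Plxdc2, Pawr, Palld, Bcl11b, Ntn1 and Stmn2. Mylk is the kinase that switches on myosin in smooth muscle, and Postn and Ccdc80 are matrix proteins. Towards the papilla-high side stood Rspo2, Nrg2, Lingo2, Ptprz1, Dcc, Unc5c, Mc5r, Crabp1, Grid1, Trpm3, Rspo3, Lrrtm3, Sfrp1, Scube1 and Pappa2. Rspo2 and Rspo3 amplify WNT signals, and Dcc and Unc5c are netrin receptors. Ntn1, which encodes a netrin, was thus on the side opposite to these receptors.

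Between the groups, members of TP had higher levels of early response genes and of fibrillar and type VI collagens than members of Con. The summed collagens were not higher in papilla-high members, with a ratio of 0.8387 (0.8025 to 0.8765). Contractile genes were on the low side in TP at the deposited depth, which equal depth did not bear out over all members. Of 3265 genes outside the rule with at least 100 UMIs in members, TP exceeded Con by at least 2-fold in 108 (3.31%) and fell short of it by at least 2-fold in 81 (2.48%), with a median log2 ratio of -0.04. In papilla-low members, 938 genes had enough UMIs, of which 46 (4.9%) were higher and 18 (1.92%) lower, with a median of 0.03. These counts are the background for the 2-fold calls of each gene list that follows. For counts of intervals that lie below or above 1, the share over all genes was not counted. Fewer cells of a type and less RNA per cell cannot be told apart in sums over all cells of a library, so list values are given per UMI of the same cells.

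Collagens were on the high side in TP. Of 23 collagen chains, 16 had enough UMIs, and TP was higher by at least 2-fold for 4 of them and lower for 0, with a median log2 ratio of 0.47. Col1a1, the main chain of type I collagen (chromosome 11, 94936224 to 94953042), was at 1465.5 CPM in members of Con and 4072.3 CPM in those of TP, a ratio of 2.779 (2.58 to 2.995). Its partner Col1a2 was at 1981.4 and 4490.7 CPM, a ratio of 2.266 (2.124 to 2.42). Col6a1 and Col6a2, chains of the beaded filaments around cells, had ratios of 2.095 (1.763 to 2.502) and 2.42 (1.976 to 2.984). The basement membrane chains did not share this direction, since Col4a1 had a ratio of 0.8936 (0.7882 to 1.014) and Col4a2 of 0.7324 (0.6379 to 0.8413). Col14a1 and Col15a1, which associate with fibrils and basement membrane, also had ratios below 1, at 0.6314 (0.4994 to 0.7986) and 0.7722 (0.6684 to 0.8927).

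Papilla-low and papilla-high members differed in this respect. The 23 chains summed to 15085 CPM in papilla-low members of Con and 30539 CPM in those of TP, a ratio of 2.024 (1.938 to 2.116). In papilla-high members they summed to 8915.6 and 7477.5 CPM, a ratio of 0.8387 (0.8025 to 0.8765). Among papilla-low members, 14 chains had enough UMIs and 5 were at least 2-fold higher, namely Col1a1, Col1a2, Col3a1, Col6a1 and Col6a2, with 0 lower and a median log2 ratio of 0.73. Per cell, collagens made up a median of 106.7 per 10000 UMIs in papilla-low members of Con, with a range from 0 to 512.0, and a median of 213.8 in TP, with a range from 2.5 to 1120. The cells of the groups thus overlapped widely around medians that differed. The ratios of papilla-low and papilla-high members were not compared by a test. The larger share of papilla-low members in TP also goes with the collagen ratios over all members, and its part in them was not tested.

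The same sum had ratios of 1.176 (1.163 to 1.189) in papilla cells, 1.204 (1.076 to 1.352) in smooth muscle cells and 1.178 (1.164 to 1.192) in fibroblasts. Inner root sheath keratinocytes held 195.9 CPM of collagen in Con and 206.4 CPM in TP, far below members. At equal depth, members that still met the rule at 1000 UMIs (36 in Con, 22 in TP) had a collagen ratio of 2.291 (2.001 to 2.625). Papilla-low members that did so (15 and 17) had a ratio of 2.156 (1.82 to 2.561). With the rule applied after thinning, the ratio was 1.749 (1.547 to 1.978) over all cells and 1.773 (1.52 to 2.073) over papilla-low ones. With 3 genes required from each list, the ratio for all members was only 1.129 (1.074 to 1.187), and that of Col1a1 was 1.261 (1.129 to 1.411). The size of the collagen difference therefore depended on which members were counted.

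The sum of fibroblast markers was also higher in papilla-low members of TP, largely through a gene that it shares with the collagens. The 12 fibroblast markers summed to 4271.7 CPM in papilla-low members of Con and 11113 CPM in those of TP, against 37155 and 41142 CPM in fibroblasts. Most of the sum in papilla-low members was Col1a1, at 3486.0 CPM in Con and 9024.0 CPM in TP. Col1a1 is also in the collagen list, so the sums of both lists are not independent. Dcn, a small proteoglycan that coats fibrils, was at 180.8 and 793.1 CPM in papilla-low members, against 9012.5 and 9500.1 CPM in fibroblasts, and 1 cell of TP held 39.7% of these Dcn UMIs. The fibroblast rule was met by 4 members of Con and 9 of TP, of which 0 and 6 were papilla-low. Without these 6 cells the collagen ratio of papilla-low members was 2.016 (1.929 to 2.108). Fibroblasts themselves made up 0.23% of the barcodes of Con and 3.1% of those of TP. The part of fibroblast RNA in the remaining difference was not tested.

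Acan, the core protein of aggrecan and a marker of the sheath, had 14 UMIs in papilla-low members of Con and 107 in those of TP, or 87.31 and 267.7 CPM, a ratio of 3.066 (1.75 to 5.797). Papilla cells had 0.1684 and 0.696 CPM, and fibroblasts 0 and 2.274 CPM. An Acan UMI was seen in 16.7% of papilla-low members of Con and 55.4% of those of TP. At 1000 UMIs per cell it was seen in 14 of 56 cells of TP and in 0 of 41 of Con, where the exact interval of the share of cells with a UMI reaches 8.6%. Acan was thus nearly limited to members among the sets named here. Papilla-high members had 42.34 and 7.069 CPM of Acan, and at 1000 UMIs a UMI in 4 of 92 and 0 of 48 cells, where the exact interval reaches 7.4%. Among all members its levels were 54.66 and 115 CPM, and in those that still met the rule at 1000 UMIs the ratio was 2.045 (0.4403 to 10.31). Under the rule with 3 genes of each list, the ratio was 1.142 (0.6614 to 2.051).

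**Figure D3:**
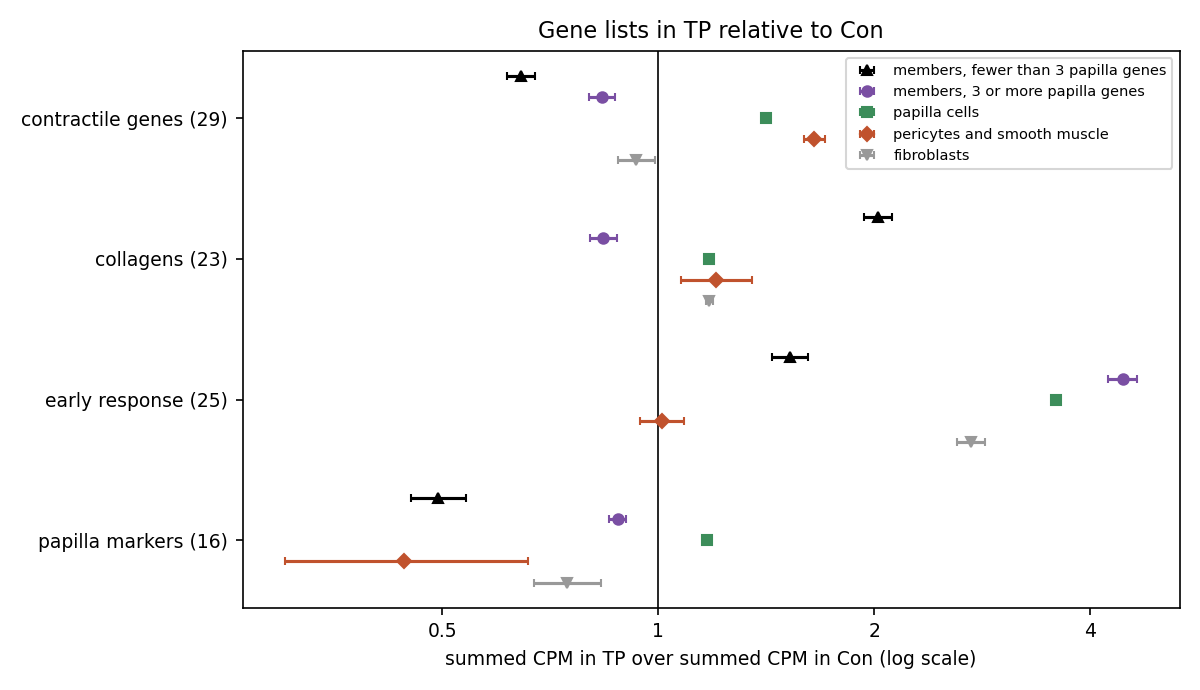
Ratio of summed CPM in TP over Con (x axis, log scale) for the contractile genes, collagens, early response genes and papilla markers (rows), in papilla-low members, papilla-high members, papilla cells, smooth muscle cells and fibroblasts. Points are ratios and bars are 95% counting intervals. Collagens are at 2.024 in papilla-low and 0.8387 in papilla-high members. Contractile genes are below 1 in both and, at 0.9322, in fibroblasts, while papilla and smooth muscle cells lie above 1.

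At the deposited depth, the contractile apparatus was on the low side in members of TP, though few of its genes passed 2-fold. Of 29 genes, 4 are rule genes and 18 of the others had enough UMIs. None was at least 2-fold higher and 1 was lower, with a median log2 ratio of -0.34. That gene was Itga1, a collagen-binding integrin chain, at 290.4 CPM in Con and 122.2 CPM in TP, a ratio of 0.4209 (0.3299 to 0.5354). Its direction turned when the rule was applied after thinning, with a log2 ratio of 0.29. The counting interval lay below 1 for 8 of the 18 genes, a count without a background over all genes. Vcl, which anchors actin at adhesions, went the other way, with a ratio of 1.778 (1.531 to 2.07).

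In papilla-low members, the contractile list had lower values in TP at the deposited depth. Myl9, the regulatory light chain of smooth muscle myosin, was at 1378.2 CPM in Con and 570.4 CPM in TP, a ratio of 0.4139 (0.3425 to 0.5003). Tpm2, a tropomyosin, was at 1047.7 and 430.3 CPM, a ratio of 0.4107 (0.3301 to 0.5111). These were the 2 of 12 genes with enough UMIs that were at least 2-fold lower, with a median log2 ratio of -0.63. Tpm1 had a ratio of 0.7176 (0.6398 to 0.8057), Cald1, the actin-binding caldesmon, of 0.7389 (0.6482 to 0.8434), and Mylk of 0.5948 (0.4497 to 0.79). The counting interval lay below 1 for 9 of the 12 genes and above 1 for 0, again without a background over all genes. Without the cell with the most contractile UMIs of each library, Tpm2 no longer passed 2-fold, with a ratio of 0.5841 (0.4556 to 0.751), the interval of Mylk included 1, with 0.7481 (0.5487 to 1.028), and Myl9 stayed past it with 0.4505 (0.3681 to 0.5515). In papilla-low members that met the rule at 1000 UMIs, the ratio of Myl9 was 0.2302 (0.07667 to 0.5815), but the intervals of Tpm2, with 0.7563 (0.3196 to 1.762), and of Mylk, with 0.9454 (0.4254 to 2.114), included 1. With the rule applied after thinning, the ratio of Myl9 was 0.7675 (0.4451 to 1.325).

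Without the 4 rule genes, the list summed to 14836 CPM in papilla-low members of Con and 9972.1 CPM in those of TP, a ratio of 0.6722 (0.6387 to 0.7075). In all members that ratio was 0.836 (0.8086 to 0.8643), and in papilla-high members 0.8908 (0.8522 to 0.9311). Papilla cells and smooth muscle cells outside the rule had ratios above 1, at 1.397 (1.381 to 1.413) and 1.52 (1.46 to 1.583). Fibroblasts had a ratio below 1, as members did, at 0.9309 (0.8762 to 0.9897). All of these ratios are at the deposited depth. Per cell, the whole list made up a median of 132.7 per 10000 UMIs in papilla-low members of Con (34.7 to 1298) and 108.9 in those of TP (22 to 334.3). The groups overlapped, and the highest value of Con lay above all those of TP.

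Some genes of this list chose the members, and a deeper cell is admitted at a lower level per UMI. Members that still met the rule at 1000 UMIs had a ratio of 0.9282 (0.8168 to 1.054) for the whole list, an interval that includes 1. In papilla-low members, split by their unthinned counts, the ratio at 1000 UMIs was 0.7457 (0.6391 to 0.8696). When the rule was applied to thinned barcodes from the start, which admitted 12 barcodes of Con and 15 of TP whose barred gene had been thinned away, the ratio was 1.161 (1.064 to 1.266) over all of them (48 in Con, 37 in TP) and 0.9079 (0.8231 to 1.002) over the papilla-low ones (23 and 31). In all members, the lower contractile level in TP therefore depended on how depth was handled. For papilla-low members that still met the rule at 1000 UMIs, the interval stayed below 1. It included 1 for papilla-low cells chosen after thinning. That choice also changed which barcodes were admitted, so the move cannot be put down to depth alone.

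**Figure D4:**
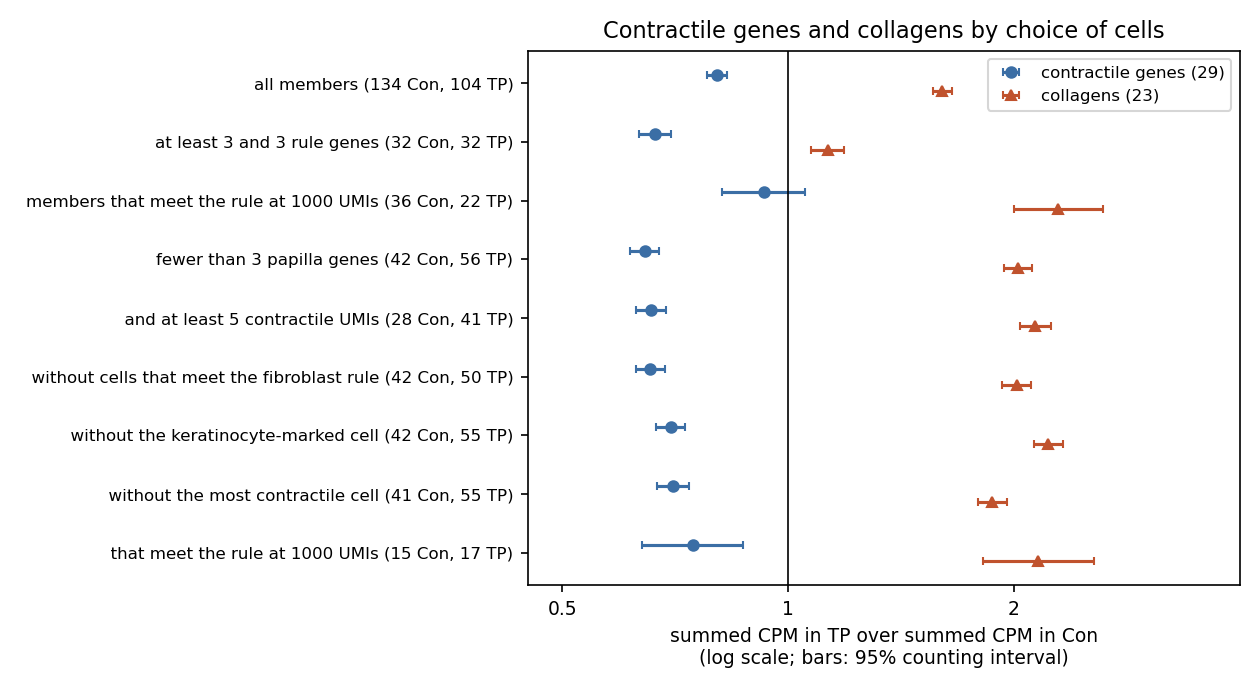
Ratio of summed CPM in TP over Con (x axis, log scale) for the 29 contractile genes (circles) and the 23 collagens (triangles) under 9 choices of cells (rows, with the cell numbers), with 95% counting intervals. Collagens lie above 1 in the rows plotted, at 1.129 with 3 genes required from each list, and the contractile interval includes 1 for all members at 1000 UMIs. Papilla-high members, with a collagen ratio of 0.8387, and cells chosen after thinning are not plotted. After thinning, the contractile ratios were 1.161 over all and 0.9079 (0.8231 to 1.002) over papilla-low ones.

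Among genes that set the strength of contraction, none passed 2-fold. Of 26 receptors, calcium channels and kinases, 16 had enough UMIs, and 0 were at least 2-fold higher and 0 lower, with a median log2 ratio of -0.12. The counting interval lay below 1 for 6 of them and above 1 for 2, counts without a background over all genes. The sum over the list had a ratio of 0.8811 (0.8403 to 0.924). Ednrb, an endothelin receptor, was at 225.5 CPM in members of Con and 348.0 CPM in those of TP, a ratio of 1.543 (1.258 to 1.902). Edn3, an endothelin ligand, was at 708.9 and 378.0 CPM, a ratio of 0.5333 (0.462 to 0.6153). At equal depth, an Edn3 UMI was seen in 46.7% (Con) and 43.8% (TP) of papilla-high members and 14.6% and 1.79% of papilla-low members. An Ednrb UMI was seen in 6.52% and 4.17% of papilla-high members and 22% and 26.8% of papilla-low members. The smaller share of papilla-high members in TP goes with both ratios, and its part in them was not tested. Itpr1, a calcium release channel, had a ratio of 0.6034 (0.4949 to 0.7357), and Rock2, a kinase that sustains contraction, of 0.6852 (0.5796 to 0.8104). Pde3a, a phosphodiesterase, differed little, at 796.0 and 844.1 CPM. Among serum response factor, its partners and targets, 11 of 14 genes had enough UMIs. Klf4, which represses smooth muscle genes, was higher with a ratio of 2.343 (1.867 to 2.964), Ccn2, a matrix-associated target, was lower with 0.371 (0.2452 to 0.5554), and the median log2 ratio was 0.13.

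Papilla transcripts were on the low side in all members of TP. The 16 papilla markers, which include the 6 genes of the split, summed to 18451 CPM in members of Con and 13128 CPM in those of TP, and 5 of 15 with enough UMIs were at least 2-fold lower, namely Rspo4, Sostdc1, Fgf10, Fgf7 and Crabp1. None was higher, and the median log2 ratio was -0.35. With 3 genes required from each list, the sum had a ratio of 0.9503 (0.9019 to 1.002) and Rspo4 a log2 ratio of 0.12. In papilla-low members that still met the rule at 1000 UMIs the sum had a ratio of 0.9118 (0.6289 to 1.323), so both intervals include 1. In all members that still met the rule at 1000 UMIs, the ratio was 0.7611 (0.6456 to 0.895). With the rule applied after thinning it was 0.5908 (0.5106 to 0.6823) over all cells and 0.6687 (0.4806 to 0.929) over papilla-low ones. Sostdc1, a secreted antagonist of BMP and WNT signals, was at 2401.6 CPM in Con and 726.0 CPM in TP, a ratio of 0.3023 (0.2757 to 0.3312). The same gene was at 2976.9 and 2676.2 CPM in papilla cells. The smaller share of papilla-high members in TP goes with this sum, which was 23275 and 20428 CPM within those members and 19893 and 23287 CPM in papilla cells. In the list of WNT, R-spondin, FGF and hedgehog genes, which shares members with it, 5 of 19 genes were at least 2-fold lower (Sfrp1, Rspo2, Rspo4, Fgf7 and Fgf10) and 0 higher, with a median of -0.29. Fgf7 and Fgf10, growth factors for the follicle epithelium, had ratios of 0.4762 (0.4276 to 0.5301) and 0.3394 (0.2848 to 0.4036).

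Of the sheath and progenitor genes, 10 of 18 had enough UMIs, 2 were at least 2-fold higher and 0 lower, with a median log2 ratio of 0.12. Those 2 were Acan and Twist1, a mesenchymal transcription factor at 157.1 CPM in Con and 344.9 CPM in TP. Twist1 was also higher in papilla cells, at 96.81 and 323.0 CPM. Of 39 other matrix genes, 26 had enough UMIs, 3 were higher (Postn, Dcn and Adamts18) and 0 lower, with a median of -0.11. Adamts18 turned direction when the rule was applied after thinning, with a log2 ratio of -1.04. Postn, a matrix protein that aids collagen cross-linking, was at 336.8 CPM in papilla-low members of Con and 665.5 CPM in those of TP. Igfbp7, among the leading genes of members, was at 4047.2 and 2061.5 CPM in papilla-low members, a ratio of 0.5094 (0.459 to 0.5654). At 1000 UMIs this difference was not seen, with ratios of 0.9535 (0.6649 to 1.369) in papilla-low members and 1.06 (0.8035 to 1.391) in all members that still met the rule.

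In the remaining signalling lists, few genes passed 2-fold. Of 28 TGF-β and BMP genes, 14 had enough UMIs and 0 were higher or lower by 2-fold, with a median log2 ratio of 0.10. Of 18 guidance genes, 10 had enough UMIs and again 0 passed 2-fold, with a median of -0.04. Among 18 IGF, PDGF and VEGF genes, 10 had enough UMIs, and Igfbp2 and Igfbp3 were higher. Among 11 steroid-related genes, 4 had enough UMIs, and Fkbp5 and Klf9, both induced by glucocorticoids and other steroids, were higher with ratios of 2.147 (1.352 to 3.534) and 2.112 (1.717 to 2.614). The sum over this list had a ratio of 2.289 (2.007 to 2.617) in papilla-high members and of 0.8541 (0.6874 to 1.066) in papilla-low members. None of the 3 genes of the CXCL12 axis had enough UMIs. Cxcl12 had 11 UMIs in members of Con and 17 in those of TP, and its receptor gene Cxcr4 had 2 and 11.

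Early response genes were the list with the most calls in members. Of 25 genes, 21 had enough UMIs, of which 16 exceeded 2-fold upwards and 0 downwards, with a median log2 ratio of 1.81. Fos, a subunit of AP-1, was at 985.6 CPM in members of Con and 4477.3 CPM in those of TP, a ratio of 4.543 (4.164 to 4.964). Egr1, another immediate-early transcription factor, was at 546.6 and 2383.1 CPM. The sum over the list had a ratio of 4.436 (4.235 to 4.649) in papilla-high members and of 1.527 (1.442 to 1.619) in papilla-low ones, where only Fosb, Ier2, Dusp1 and Klf6 passed 2-fold upwards and the heat shock genes Hspa1a and Hspa1b passed it downwards. The same sum had a ratio of 3.58 (3.548 to 3.612) in papilla cells and 1.012 (0.9439 to 1.086) in smooth muscle cells. A Fos UMI was seen in 59.7% of members of Con and 89.4% of those of TP. In members that still met the rule at 1000 UMIs, the sum had a ratio of 2.164 (1.842 to 2.544). At that depth a Fos UMI was seen in 42.1% of members of Con and 77.9% of those of TP, and in 16.6% and 57.9% of inner root sheath keratinocytes, so the difference was also present in cells of another lineage. These genes respond to tissue dissociation as well as to signals, and the handling of the 2 pools cannot be told apart from the treatment.

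The genes with the largest differences in members were of several kinds. Gpc5, a cell surface proteoglycan, led with 27.33 CPM in Con and 387.3 CPM in TP, a ratio of 14.17 (8.613 to 25.06). It was found in 5.22% and 14.4% of members, 1 cell held 56.2% of its UMIs in Con and 34.5% in TP, and most came from papilla-high cells of TP, since papilla-low members had 56.13 and 2.502 CPM. The 11 others were Zfp36, Fosb, Calm4, S100a4, Igfbp3, Cd24a, Fos, Ier2, Krt10, Btg2 and Egr1, of which most are early response genes. S100a4, a calcium-binding protein of motile mesenchyme, was at 205.8 CPM in papilla-low members of Con and 447.8 CPM in those of TP. Krt10, a keratin of the upper epidermis, was at 515.8 and 2303.4 CPM in members, and 1 cell of TP held 54.9% of its UMIs there. Another cell of TP held 52.5% of the Igfbp3 UMIs. At equal depth, the share of papilla cells with a UMI was also higher in TP for several of these genes. It was 3.88% in Con and 24.1% in TP for Gpc5, and 5.74% and 22.8% for Cd24a. For Btg2 it was 4.27% and 21.5%, and for Calm4 15.6% and 29.7%, so these 4 rises were not particular to members.

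The 12 genes lowest in members of TP relative to Con were Bnc2, Cdh6, Krt71, Tchh, Sox5, Krt25, Sostdc1, Csgalnact1, Ogn, Sfrp1, Trpm3 and Cemip2. Krt71, Krt25 and Tchh are structural genes of the inner root sheath. Krt71 was at 413.4 CPM in members of Con and 64.21 CPM in those of TP, against 6480.1 and 6967.6 CPM in inner root sheath keratinocytes. Those keratinocytes made up 7.58% of the barcodes of Con and 2.27% of those of TP. At equal depth, Bnc2, Cdh6 and Csgalnact1 had a UMI in 41.5%, 41% and 74.5% of these keratinocytes of Con. In papilla cells, the share with a UMI was lower in TP, at 21.5% and 5.72% for Bnc2 and 37.2% and 12.9% for Cdh6. Csgalnact1 was at 25.4% and 9.21% there, so these falls were not particular to members. The part of keratinocyte RNA in the differences was not tested. Ogn, a small matrix proteoglycan, was low in the keratinocytes. It was at 256.2 and 80.78 CPM in members, at 35.41 and 12.13 CPM in papilla cells and at 1.386 and 0.8831 CPM in the keratinocytes. Sfrp1, a WNT antagonist, and Trpm3, an ion channel, came from papilla-high members, at 2164.2 and 880.1 CPM for Sfrp1 and 1533.8 and 618.6 CPM for Trpm3.

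**Figure D5:**
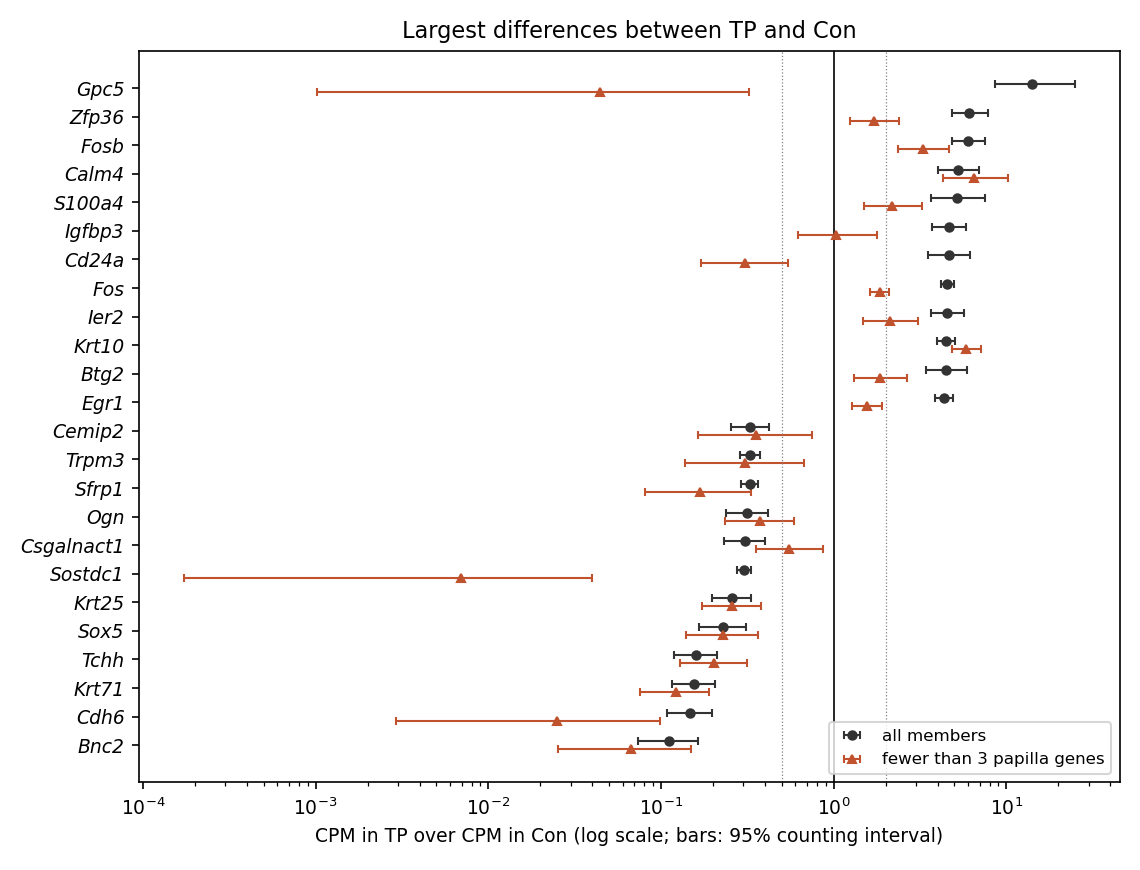
Ratio of CPM in TP over Con (x axis, log scale, with 95% counting intervals) for the 12 genes most above and the 12 most below 1 in members (rows). Circles are all members and triangles papilla-low members, and Gpc5 (14.17 in all members) and Cd24a lie on opposite sides of 1 in the 2 sets.

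Markers of pericytes, smooth muscle, endothelium, melanocytes, leukocytes and Schwann cells were not absent from members. Each of these lists summed to less there than the papilla and fibroblast markers given above. The 15 pericyte and smooth muscle markers, 3 of them barred by the rule, summed to 181.1 CPM in members of Con and 267.2 CPM in those of TP, against 2789.8 and 3636.7 CPM in smooth muscle cells. Those cells were chosen by at least 2 of the same 3 genes, so part of this contrast follows from the choice. Endothelial markers summed to 34.16 and 25.89 CPM, and melanocyte markers to 184.5 and 148.1 CPM. The rule barred 1 gene of each of these lists, Pecam1 and Dct, which lowers their sums in advance. The 17 keratinocyte markers summed to 4140.8 CPM in papilla-low members of Con and 9241.6 CPM in those of TP. In 1 TP cell they took more than 5% of UMIs, and without it the TP value was 3804.5 CPM and the collagen ratio of papilla-low members was 2.223 (2.128 to 2.323). At 1000 UMIs the keratinocyte sum had a ratio of 0.9343 (0.6613 to 1.321) in papilla-low members. Leukocyte markers summed to 8.54 and 162.6 CPM in all members, with 0 UMIs of the complement gene C1qa in Con and 34 in TP, of which 1 cell held 50%. In TP the leukocyte sum was above that of each set of comparison cells, the next being smooth muscle cells with 86.34 CPM. In Con it was below the 22.95 CPM of papilla cells. Schwann cell markers summed to 714 and 619.3 CPM, near papilla cells with 804.2 and 715.6 CPM. Fibroblasts had less, with 186.2 and 190.2 CPM, as did inner root sheath keratinocytes, with 69.39 and 69.54 CPM.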

How the data were processed

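The deposited files held, per library, UMI counts for each of 32285 genes and each barcode, which the authors made with Cell Ranger 8.0.1 against mm10 (versions per the submitters' processing notes), with genes and barcodes in lists of their own. Counts were used as deposited. Barcodes with 200 to 8000 genes and at most 10% mitochondrial UMIs were kept. The members and gene lists were chosen with earlier results of these data known. The papilla split and the alternatives built on it were chosen after the values had been seen.

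For each set of cells, the UMIs of a gene were added up, divided by the total of the set and given as CPM. A fold is a ratio of these. Log2 ratios of single genes had 1 UMI added per library, while lists were compared by their summed UMIs without it. Genes called at least 2-fold higher or lower had at least 100 UMIs in both libraries together, were no rule gene, no mitochondrial gene and no gene model without a symbol. Intervals are exact: Clopper-Pearson for shares, and conditional binomial for ratios. UMIs count molecules, but cells of 1 library are no replicates, so no interval covers variation between mice. Named genes were, by a stated rule, the 12 largest log2 ratios in each direction and the 20 genes highest in members, each with at least 200 UMIs, the rule genes, and from each list those past 2-fold and the 4 with the most UMIs. Other genes named in the text (Vcl, Col4a1, Col4a2, Col14a1, Col15a1, Itpr1, Rock2, Ednrb, Edn3, Pde3a and C1qa) were chosen after their values were seen.

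Comparison cells were non-members. Papilla cells held at least 3 of the 6 papilla genes and fibroblasts at least 3 of Pi16, Dpp4, Mfap5, Clec3b, Lum and Dpt. Pericytes and smooth muscle cells held at least 2 of Acta2, Tagln and Myh11 and at least 2 of Rgs5, Notch3 and Des. Inner root sheath keratinocytes had at least 1% of UMIs from Krt25, Krt27, Krt28, Krt71, Krt72 and Krt73. Doublets stayed in, since the deposited barcodes carry no doublet calls. A neighbour-based caller with 25% artificial doublets, 30 components and 1% neighbours, removing 7.5% of barcodes, was an alternative. Other alternatives were stricter rules, thinning to 1000 UMIs, TMM factors (edgeR 4.0.16, R 4.3.3), count minimums and each cell weighted equally. Scripts, which were tested on simulated data, ran in Python 3.11.15 with pandas 2.3.3, scipy 1.17.1 and numpy 2.4.6.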

Additional observations from a re-analysis of the deposited data

Results flagged for a closer look

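Barcodes outside the limits on genes and mitochondrial UMIs were not used in any comparison. In TP, 6 of 5886 such barcodes, or 0.102%, met the gene rule for contractile sheath cells, against 1 of 3465, or 0.0289%, in Con. All of them were over the limit on mitochondrial UMIs. They were singled out because the share was larger in TP, in barcodes that no comparison used. The shares rest on 6 and 1 barcodes and were not matched for depth. The median barcode, before any limit, had 3772 UMIs in TP and 2069 in Con.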

How the results depend on the processing

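No paired analysis was possible because each group is 1 library. The ratio of the members' share in TP over Con was 2.81 in papilla-low members and 1.48 to 2.11 under the other alternatives tried. Against 108 genes higher and 81 lower by 2-fold in all members, the counts were 43 and 11 with 3 genes required from each list, 46 and 18 in papilla-low members, and 6 and 2 when the rule was applied at 1000 UMIs, where only 80 genes had enough UMIs. With at least 5 contractile UMIs, 65 genes were higher and 56 lower. With at least 400 UMIs per gene they were 41 and 18, and with at least 1 UMI 903 and 1822. A TMM factor added 0.11 to every log2 ratio of members (0.16 in papilla-low members) and gave 123 genes higher and 53 lower. Higher genes made up 57.1% of the calls, but 69.9% with TMM, 79.6% with 3 genes of each list, 71.9% in papilla-low members, 75% after thinning, 69.5% at 400 UMIs and 33.1% at 1 UMI. Of 64 named genes past 2-fold, 64 kept their direction with TMM and 59 stayed past 2-fold, against 64 and 52 with each cell weighted equally and 61 and 38 in papilla-low members. These counts were 62 and 41 with 3 genes of each list, and 61 and 35 with the rule applied after thinning. Log2 ratios changed sign in papilla-low members for Cd24a (-1.69), Gpc5 (-3.64) and Klf2 (-0.11), after thinning for Adamts18 (-1.04), Itga1 (0.29) and Mki67 (0.96), at 5 contractile UMIs for Mki67 (0.11), and with 3 genes of each list for Ndufa4l2 (-0.31) and Rspo4 (0.12). The causes of these changes were not tested. Leaving out the member with the most contractile UMIs of each library gave a collagen ratio of 1.872 and a contractile ratio of 0.7021 in papilla-low members. The further papilla-low cell of Con with 183 contractile UMIs stayed in. The ratio without both Con cells was not computed, so the dependence on single cells can be larger than these values show. Depth limits the genes that can be read, since at 1000 UMIs 36 members of Con and 22 of TP still met the rule.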

Other observations

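Cell cycle genes were sparse in members. Of 19 genes, 4 had enough UMIs, 2 of them (Mki67 and Top2a) were at least 2-fold lower in TP and 0 higher, with a median log2 ratio of -0.92. The direction of Mki67 turned at 5 contractile UMIs, with a log2 ratio of 0.11, and when the rule was applied after thinning, with 0.96. Of 22 chemokine, interleukin and complement genes, 4 had enough UMIs. Nfkbia and Nfkbiz, which feed back on NF-κB, were higher, and Cxcl14, a chemokine of skin, was lower, at 316.0 CPM in members of Con and 115 CPM in those of TP. Papilla cells had 366 and 127.1 CPM of Cxcl14, so its lower level was not particular to members.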
